A study of Mus musculus with 28 samples.

Results

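A set of 10 genes that divide cortical interneurons into subtypes was followed through 28 single mouse brain cells: the peptide genes Sst, Cort, Vip, Npy, Cck and Tac1, the calcium-binding protein genes Pvalb, Calb1 and Calb2, and Reln, which encodes a secreted matrix glycoprotein. They were chosen by name, as 10 of the 23453 genes of the exonic count table, and all 10 also stand among the 20422 genes of the intronic table. The question was how many of these genes a single cell carried, which ones it carried together, and whether their pattern followed the inhibitory or the excitatory transmitter genes.

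The sample labels describe 12 neurons and 8 astrocytes from primary culture of C57/BL6 cortex, taken up with a pipette, and 8 interneurons from acute slices of C57/BL6/N mice, collected by patch-clamp pipette from the prefrontal cortex. The cultured cells went through a TruSeq Nano library kit and a NextSeq 500, and the slice cells through a TruSeq Stranded kit and a HiSeq instrument. The labels name no animal, litter or culture for a cell, carry no treatment, and for the cultured cells describe a perfused adult male mouse, whereas the study's methods describe embryonic cultures grown for weeks. The codes above the 28 columns of counts are found in no label. Columns were therefore not tied to samples, and every comparison is between single cells of 1 pooled sample, with no test.

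The columns are named by code, and levels are counts scaled to the exonic total of the cell (CPM, counts per 1e6). The 8 columns that begin with F are called F cells, and the 20 that begin with BRP are split into 12 and 8. That split, and the reading of the blocks as presumed interneurons, neurons and astrocytes, came from block size and marker genes, so that markers describe the blocks and do not check them. Gad1, the main enzyme of GABA synthesis, was at 10 exonic CPM or more in 7 of 8 F cells, and Slc17a6, a vesicular glutamate transporter, in 0. Slc17a6 was at 69.1 to 1012 CPM in 11 of the 12 BRP cells. The last of them, BRP528, had no Slc17a6 count and carried Gad1 at 1136, Gad2 at 780 and the vesicular GABA transporter gene Slc32a1 at 798 CPM. The 8 BRP cells had the astrocyte water channel gene Aqp4 at 652 to 2062 CPM, and the synaptic gene Snap25 at 0 to 42.4 CPM. Other neuronal markers were higher there: Map2 ran from 236 to 484 and Stmn2 from 53.8 to 433 CPM, both in all 8 cells. Of 6 neuronal markers, 5 were at 10 CPM or more in at least 1 of the 8. Their summed level was 299 to 801 CPM, against 4737 to 8469 CPM in the 12 BRP cells.

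Libraries stood apart in several ways. Exonic counts per cell ran from 838343 to 14831505 in F cells and from 12969692 to 26770944 in BRP cells, and the number of genes at 10 CPM or more had a median of 1413 in F cells against 6803 in the 12 and 7715 in the 8 BRP cells. F1 had 5.31% of its counts in introns, against 36.3 to 63.0% in the other F cells. F11 and F12 were close to each other, with a Pearson r of 0.954 between their log2(CPM + 1) values against 0.19 to 0.489 in the other 27 pairs of F cells. Their counts differed by more than sampling noise (chi-square per degree of freedom 17.6, against 219 or more in the other 377 pairs of cells). They may come from 1 cell. The counts of cells with Tac1, with Calb1 and with more than 1 of the 10 genes are given both ways. Other counts mostly take them as separate cells. Markers of other cell types were also present. F7 had the oligodendrocyte-lineage gene Olig1 at 3210 and the glutamate transporter gene Slc1a2 at 4350 CPM, and F16 had the microglial gene Csf1r at 2093 CPM. BRP528 carried Aqp4 at 142 CPM beside its GABA genes. Over F cells, 3 of 9 astrocyte markers were at 10 CPM or more in at least 1 cell (summed level 0 to 4352 CPM, with Aldh1l1 and S100b at 0), as were 3 of 7 oligodendrocyte-lineage markers (0 to 3387 CPM), 1 of 6 microglial markers (0.0674 to 2093 CPM) and none of 6 endothelial and mural or 7 glutamatergic markers. Over the 12 BRP cells the summed astrocyte markers ran from 221 to 2464 CPM, mainly through Slc1a2, and over the 8 BRP cells from 1961 to 8070 CPM. Oligodendrocyte-lineage markers summed to 0.517 to 1306 CPM in the 12 and 563 to 1312 CPM in the 8. In all of the 8, Olig1 was at 432 to 1048 and Olig2 at 40.2 to 218 CPM. Pdgfra and the mural gene Pdgfrb were each at 10 CPM or more in 6 of these 8. Summed microglial markers reached 46.6 CPM in the 12 and 34.6 CPM in the 8, and endothelial and mural ones 44.2 and 75.3 CPM. The part of these in the results was not tested.

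In the adult cortex, inhibitory interneurons fall into classes that are commonly recognised by parvalbumin, somatostatin and vasoactive intestinal peptide, with neuropeptide Y, cholecystokinin, calretinin and reelin marking smaller classes or overlapping with them. The peptides are cut from precursors, stored in dense core granules and act on G protein-coupled receptors, whereas parvalbumin, calbindin and calretinin bind calcium inside the cell through EF-hand loops. Several of these genes are not exclusive to interneurons: Cck is also made by many cortical pyramidal cells, and Calb1 by a part of them.

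Promoter sequences are shown for 4 peptide genes because peptide genes of this kind are the textbook targets of cAMP and activity signalling through the cAMP response element, TGACGTCA, and its shorter form TGACG. Each window covers 250 bases before to 50 bases after the RefSeq start on GRCm38.p6. Letters in capitals mark TGACG on either strand, so the reverse form reads CGTCA, and TGACGTCA holds both forms overlapping. The window of Sst lies at chr16:23890795-23891094 on the minus strand, that of Vip at chr10:5638968-5639267 on the plus strand, that of Cck at chr9:121495645-121495944 on the minus strand and that of Tac1 at chr6:7554811-7555110 on the plus strand.
Sst: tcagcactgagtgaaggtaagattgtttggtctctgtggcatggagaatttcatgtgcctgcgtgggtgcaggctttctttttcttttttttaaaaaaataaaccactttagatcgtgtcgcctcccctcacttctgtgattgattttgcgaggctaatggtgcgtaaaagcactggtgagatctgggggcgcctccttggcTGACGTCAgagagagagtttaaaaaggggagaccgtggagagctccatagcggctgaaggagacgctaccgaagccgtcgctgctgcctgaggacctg
Vip: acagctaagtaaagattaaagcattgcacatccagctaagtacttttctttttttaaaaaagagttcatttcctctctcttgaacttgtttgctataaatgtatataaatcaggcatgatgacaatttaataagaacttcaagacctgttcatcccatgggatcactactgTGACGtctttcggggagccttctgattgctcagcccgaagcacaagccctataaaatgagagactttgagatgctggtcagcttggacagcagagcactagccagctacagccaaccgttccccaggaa
Cck: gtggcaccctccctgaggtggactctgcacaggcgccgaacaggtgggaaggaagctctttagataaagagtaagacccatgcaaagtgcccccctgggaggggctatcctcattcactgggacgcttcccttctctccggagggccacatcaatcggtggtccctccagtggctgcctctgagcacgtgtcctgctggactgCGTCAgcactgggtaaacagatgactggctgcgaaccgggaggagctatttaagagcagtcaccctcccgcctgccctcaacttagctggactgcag
Tac1: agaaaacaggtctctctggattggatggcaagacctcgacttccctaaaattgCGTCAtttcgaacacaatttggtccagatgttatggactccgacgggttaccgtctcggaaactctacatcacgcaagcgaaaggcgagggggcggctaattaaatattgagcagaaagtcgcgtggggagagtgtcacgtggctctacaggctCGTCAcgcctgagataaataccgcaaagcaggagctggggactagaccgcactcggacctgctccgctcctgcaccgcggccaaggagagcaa
Windows were found for 8 of the 10 genes, with 2 for Pvalb. Calb1 and Calb2 had none. The full TGACGTCA was in 1 of the 8 genes, Sst, and in 1.79% of all 32851 promoter windows of the table. TGACG on either strand was in 5 genes (Sst, Vip, Cck, Tac1 and Cort) and in 20.8% of all windows, and it was not in the windows of Npy, Pvalb or Reln. A match is a description of letters, and levels of the 5 genes with a match ran from no count in any cell for Cort to 5024 CPM for Cck.

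Expression was called at 10 exonic CPM or more in a cell. A count of 3, taken as the floor, was 0.112 to 3.58 CPM depending on depth. By this call 8 of the 10 genes were expressed in at least 1 of the 28 cells, where 57.0% of all genes were. In F cells the count was 8 of 10 against 26.4% of all genes, in the 12 BRP cells 8 of 10 against 50.0%, and in the 8 BRP cells 4 of 10 against 47.5%. Vip and Cort were expressed in none. Over F cells, 7 of the 8 expressed genes were found in no more than 4 of 8 cells, which held for 93.5% of all genes expressed in an F cell. The map of the 10 genes by cell shows Cck as a band across the 12 BRP cells and single bright cells for the others.

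**Figure D1:**
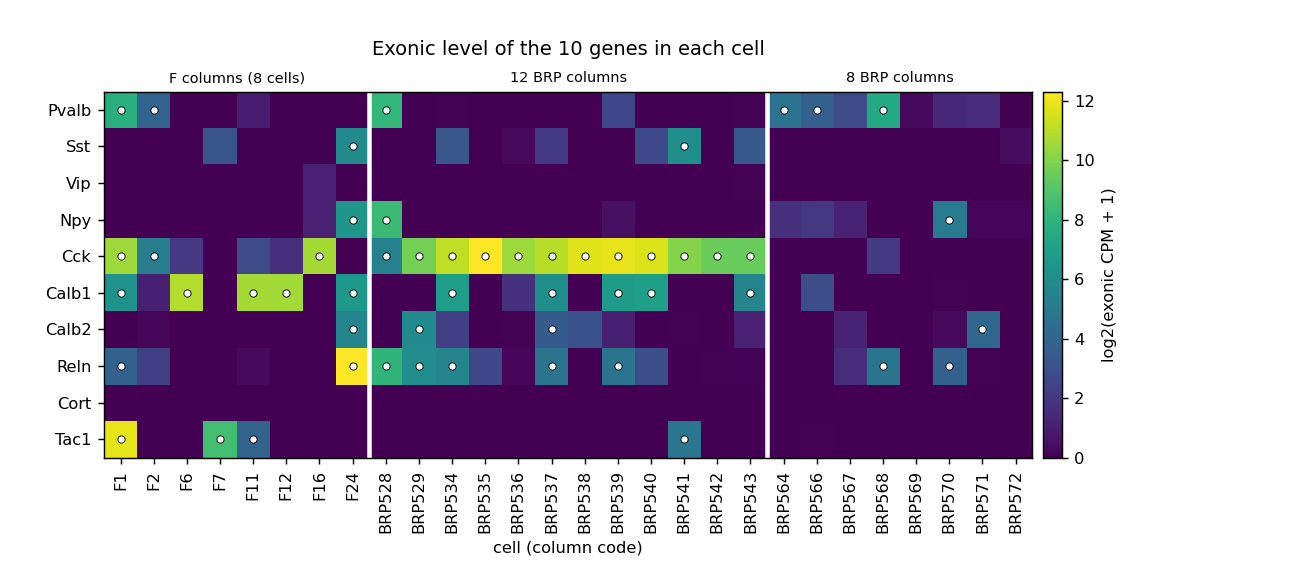
Exonic level of each of the 10 genes (rows) in each of 28 cells (columns, by code), as log2(CPM + 1), with white dots at 10 CPM or more and white lines between the 3 blocks of column codes. Cck has a dot in all 12 BRP cells of the middle block, and F1 and F24 have 5 dots each.

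Among the peptides, Cck, the gene of cholecystokinin (chr9:121489824-121495694, minus strand, mm10), was the most widespread, at 10 CPM or more in 15 of 28 cells. It was expressed in all 12 cells of the middle block, where 23.2% of the genes expressed in any of those cells were, and ran there from 41.6 to 5024 CPM with a median of 1725. The lowest of the 12 was BRP528, the cell with GABA genes, and the other 11 were at 700 CPM or more. In F cells it was at 1602 CPM in F16, 1459 in F1, 36.5 in F2, 5.92 in F11, 3.1 in F6 and 2.2 in F12, and without a count in F7 and F24. F cells therefore fell into 2 high cells, 1 low cell and 5 below the threshold. In the 8 BRP cells of the astrocyte-marker block, 7 had no Cck count and BRP568 was at 3.27 CPM.

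Cck was found with excitatory and with inhibitory transmitter genes. Of the 15 expressing cells, 11 had Slc17a6 at 10 CPM or more and 4 (F1, F2, F16 and BRP528) had Gad1, with no cell in both sets. Gad2, the other enzyme of GABA synthesis, did not follow this split: it was at 10 CPM or more in 6 of the 11 cells with Slc17a6, at 33.9 CPM in BRP536, 38.6 in BRP539, 51.6 in BRP537, 64.3 in BRP535, 128 in BRP543 and 340 in BRP541. In all, 10 of the 15 cells had Gad1 or Gad2. Seen from the other side, 11 of 12 cells with Slc17a6 expressed Cck, the exception being BRP566 of the astrocyte-marker block, whereas 4 of 8 cells with Gad1 did. Those 11 all belong to the 12 BRP cells, which all expressed Cck, and 7 of the 8 cells with Gad1 were F cells. This contrast cannot be told apart from that between the blocks. Levels in the Gad1 set spanned 36.5 to 1602 CPM and those in the Slc17a6 set 700 to 5024 CPM, so the ranges overlapped. The plot of Cck against the 2 transmitter genes shows these sets on separate axes.

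**Figure D2:**
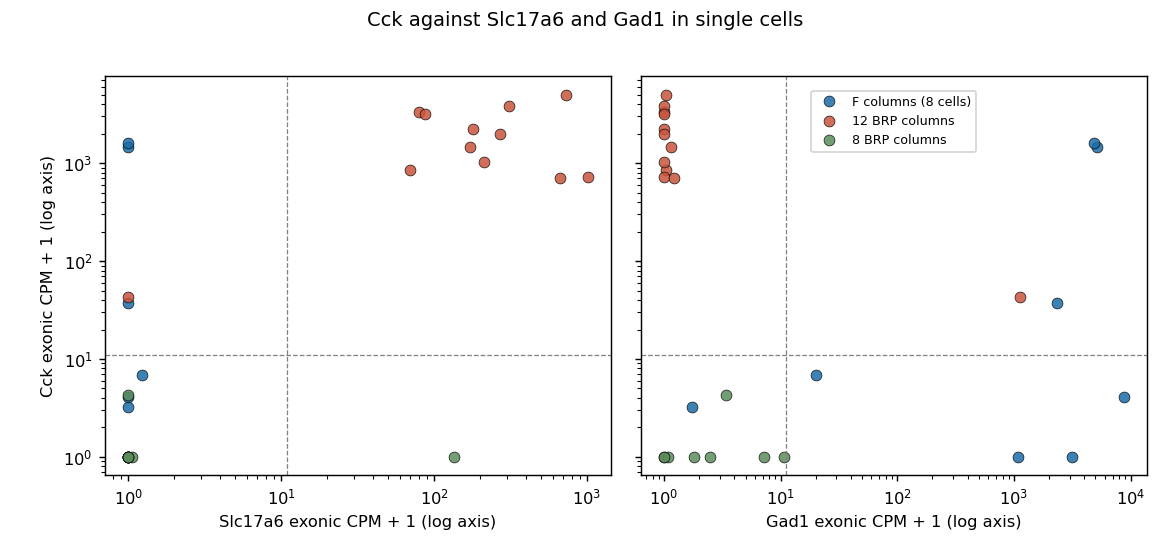
Cck against Slc17a6 (left) and Gad1 (right) in single cells, all as exonic CPM + 1 on log axes, 1 point per cell coloured by block of column codes, with dashed lines at the call of 10 CPM. High Cck points lie at 69.1 to 1012 CPM of Slc17a6 with Gad1 near 0, or at Gad1 of 4820 to 5142 CPM without Slc17a6.

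Tac1, the precursor gene of substance P and neurokinin A (chr6:7554879-7565834, plus strand), was expressed in 4 of 28 cells, 3 of them F cells. F1 stood at 3704 CPM, F7 at 382 and F11 at 14.3, and the other 5 F cells had no count. With F11 and F12 taken as 1 cell, Tac1 was expressed in 3 cells, 2 of them F cells, since their summed level was 8.88 CPM. The fourth cell was BRP541 at 27.6 CPM, from 485 counts, and 1 further count lay in BRP566. High Tac1 was thus seen in 2 F cells, with Gad1 at 5142 and 1092 CPM.

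Sst, the gene of somatostatin (chr16:23889573-23890958, minus strand), was expressed in 2 of 28 cells. BRP541 was at 69.3 CPM and F24 at 56.7 CPM, with overlapping exact Poisson 95% intervals of 65.5 to 73.3 and 47.0 to 67.8, which cover counting error only. Just below the threshold lay BRP543 at 9.49, BRP534 at 9.08 and F7 at 8.4 CPM, so the number of cells called depends on where the line is drawn. No cell had an intronic count of Sst, whose introns together span 0.665 kb. Leaving out either BRP541 or F24 left 1 cell.

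Cort, which encodes cortistatin, a peptide related to somatostatin (chr4:149125034-149126763, minus strand), had no exonic and no intronic count in any of the 28 cells. At these depths 0 counts allows a level of up to 0.112 CPM in the deepest and 3.58 CPM in the shallowest cell. Vip, the gene of vasoactive intestinal peptide (chr10:5639218-5647617, plus strand), had 2 exonic counts in all, 1 in F16 and 1 in BRP543. Its introns held 211 counts over 9 cells, 133 of them in F7, which had no exonic count. No cell was therefore called for Vip, the peptide of one of the main interneuron classes.

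Npy, the gene of neuropeptide Y (chr6:49822710-49829507, plus strand), was expressed in 3 of 28 cells. BRP528 stood at 337 CPM, F24 at 91.7 and BRP570 at 32.5 CPM, 1 cell in each block. The first 2 carried Gad1 and Slc32a1, and BRP570 had no count of either. Of the remaining F cells, 6 had no Npy count and F16 had 1.

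Pvalb, the gene of parvalbumin, the calcium buffer of fast-spiking interneurons (chr15:78191114-78206400, minus strand), was expressed in 6 of 28 cells: BRP528 at 279 CPM, F1 at 213, BRP568 at 182, BRP564 at 24.8, F2 at 14.5 and BRP566 at 12.7. Only F1 and F2 were F cells, and the other F cells had no count apart from F11 at 0.911 CPM. The 3 cells F1, F2 and BRP528 had Gad1 at 1136 CPM or more. BRP564, BRP566 and BRP568 belong to the astrocyte-marker block, with Aqp4 at 1076 to 2062 CPM, no Snap25 count and Gad1 at 0 to 2.37 CPM. The neuronal markers Map2 and Stmn2 were at 10 CPM or more in all 8 cells of that block. BRP568 had its highest Map2 (484 CPM) and Tubb3 (53.4 CPM). BRP566 had Slc17a6 at 133 and Slc32a1 at 13.1 CPM as well, so that 4 of the 6 cells with Pvalb had Slc32a1. Pvalb at 10 CPM or more was therefore found in 3 cells with and 3 cells without Gad1, and the highest value of each set (279 and 182 CPM) differed less than the values within a set. Over all 8 cells of the astrocyte-marker block Pvalb had a count in 7.

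Calb1, the gene of calbindin (chr4:15881264-15908064, plus strand), was expressed in more F cells than any other of the 10 genes, 5 of 8, or 4 of 7 with F11 and F12 taken as 1 cell. It stood at 1930 CPM in F6, 1587 in F11, 1543 in F12, 92.6 in F24, 78 in F1 and 1.08 in F2, and F7 and F16 had no count. Of the 5 expressing F cells, 3 lay at 1543 CPM or more and 2, F1 and F24, at 92.6 CPM or less. With F11 and F12 summed, at 1571 CPM, 2 cells lay that high, and the number of expressing cells among all went from 10 to 9. In the 12 BRP cells 5 expressed it, at 48 to 123 CPM (BRP543, BRP537, BRP539, BRP534 and BRP540). All 5 had Slc17a6 and Cck, which 11 and 12 of the 12 cells had. None of the 5 reached the level of F6, F11 or F12, and F1 and F24 lay inside their range. In the astrocyte-marker block the highest value was 6.56 CPM, in BRP566. Introns of Calb1 held counts in 22 of 28 cells, with the most, 261, in BRP540. BRP541 had 129 intronic counts and no exonic count.

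Calb2, the gene of calretinin (chr8:110137502-110168210, minus strand), was expressed in 4 of 28 cells, at 61.1 CPM in BRP529, 48.2 in F24, 16.1 in BRP571 and 10.8 in BRP537. F24 was the only F cell with Calb2 at 10 CPM or more, and 6 of the other 7 F cells had no count. BRP529, the highest, also carried the oligodendrocyte-lineage genes Olig1 at 831 and Pdgfra at 257 CPM and Aqp4 at 418 CPM, and their part in its value was not tested.

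Reln, the gene of reelin, a secreted glycoprotein that guides layering in development and is kept in some adult interneurons (chr5:21884454-22344702, minus strand), was expressed in 9 of 28 cells. F24 stood at 5081 CPM, followed by BRP528 at 262, BRP529 at 64.5 and BRP534 at 46.9 CPM. The remaining 5 cells lay between 13.0 and 26.4 CPM, F1 being the lowest. F24 was thus 1 cell far above all others, and no other F cell but F1 passed the threshold.

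In introns, Reln had counts in all 28 cells, from 6 in F16 to 18085 in F6. F6 had no exonic count, and F2 had 7314 intronic against 22 exonic counts. F24 was high in both, with 17957 intronic and 10754 exonic counts, whereas BRP528 had 1004 and 5262. The plot of exonic against intronic counts shows F6 level with F24 on the intronic axis and at the opposite end of the exonic axis. Introns of Reln span 437 kb against 23.7 kb of exon, and in GENCODE M21 the gene overlaps 3 annotated genes on its own strand and 4 on the opposite one. None of the 7 has a row in the exonic table, and the strand setting of the counting is not given in the sources used here, so reads of these genes cannot be told apart from those of Reln.

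**Figure D3:**
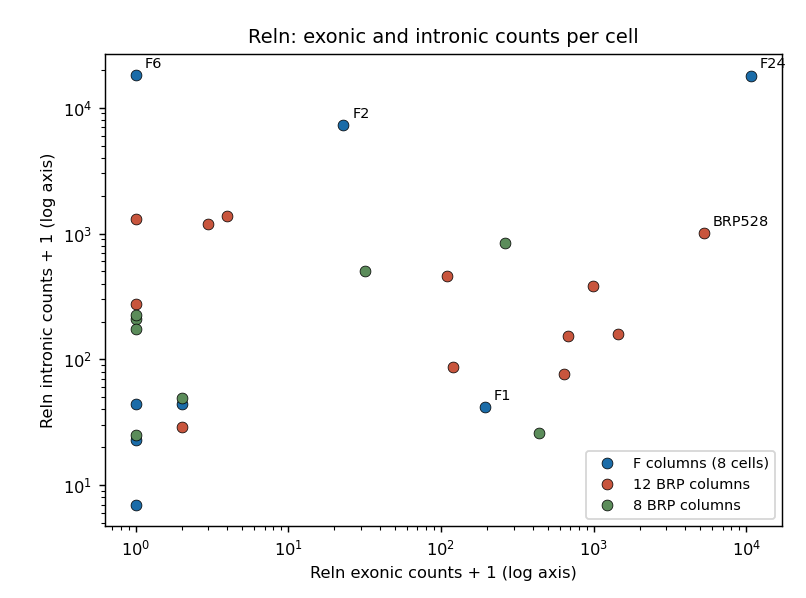
Exonic (horizontal) and intronic (vertical) counts of Reln per cell, each plus 1 on log axes, coloured by block of column codes. F6 has 18085 intronic and 0 exonic counts, and F24 has 17957 and 10754.

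Within single cells, 14 of 28 expressed 2 or more of the 10 genes. There were 3 cells with none, 11 with 1, 6 with 2, 4 with 3, 2 with 4 and 2 with 5. The cells with none were BRP567, BRP569 and BRP572. F cells had a median of 1.5 genes (range 1 to 5), the 12 BRP cells 2.5 (1 to 4) and the 8 BRP cells 1 (0 to 2). The 4 F cells with 2 or more were F1, F24, F2 and F11. With F11 and F12 taken as 1 cell, the numbers became 13 of 27 cells and 3 of 7 F cells, and the median of F cells 1 gene.

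F1 and F24 carried 5 genes each, and shared Calb1 and Reln. F1 combined Tac1 at 3704 and Cck at 1459 CPM with Pvalb at 213, Calb1 at 78 and Reln at 13.0. F24 combined Reln at 5081 CPM with Calb1 at 92.6, Npy at 91.7, Sst at 56.7 and Calb2 at 48.2. The sets were otherwise separate: F24 had no count of Pvalb, Cck or Tac1, and F1 had none of Sst or Npy. Among the remaining F cells, F2 paired Pvalb with Cck, F11 paired Calb1 with Tac1 at 14.3 CPM, a pairing that was lost when F11 and F12 were summed, and F6, F12, F7 and F16 each had 1 gene (Calb1, Calb1, Tac1 and Cck).

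Levels of different genes were compared per kb of exon. On that scale the leading gene of F1 was Cck at 1118 CPM per kb, close to Tac1 at 1090, although Tac1 led in CPM. Reln led F24 at 214 CPM per kb, 1.32 times Npy at 162. In F16, F12, F6 and F11 the leading gene was at least 72.2 times above the next, whereas in F2 Cck was 2.01 times Pvalb. Cck led in 11 of the 12 BRP cells on both scales, and Npy led in BRP528 at 595 CPM per kb, followed by Pvalb at 268.

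Of the 45 pairs of genes, 24 were seen together in at least 1 cell, 19 of them in F cells, 14 in the 12 and 2 in the 8 BRP cells. The most frequent pairs were Cck with Calb1 and Cck with Reln, each in 6 cells of which 5 belonged to the 12 BRP cells. As all 12 expressed Cck, these were simply the 5 cells of that block with Calb1 and the 5 with Reln. Calb1 with Reln followed in 5 cells. Pvalb and Sst, which mark separate classes in the adult cortex, were never in the same cell. Pvalb with Cck was found in 3 cells (F1, F2 and BRP528), as was Pvalb with Reln (F1, BRP528 and BRP568) and Npy with Reln (F24, BRP528 and BRP570). Sst with Npy was seen once, in F24. All 3 cells with Npy thus also carried Reln. Since a gene in few cells can be paired only rarely, the counts describe these 28 cells and say nothing of pairs that were not seen.

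**Figure D4:**
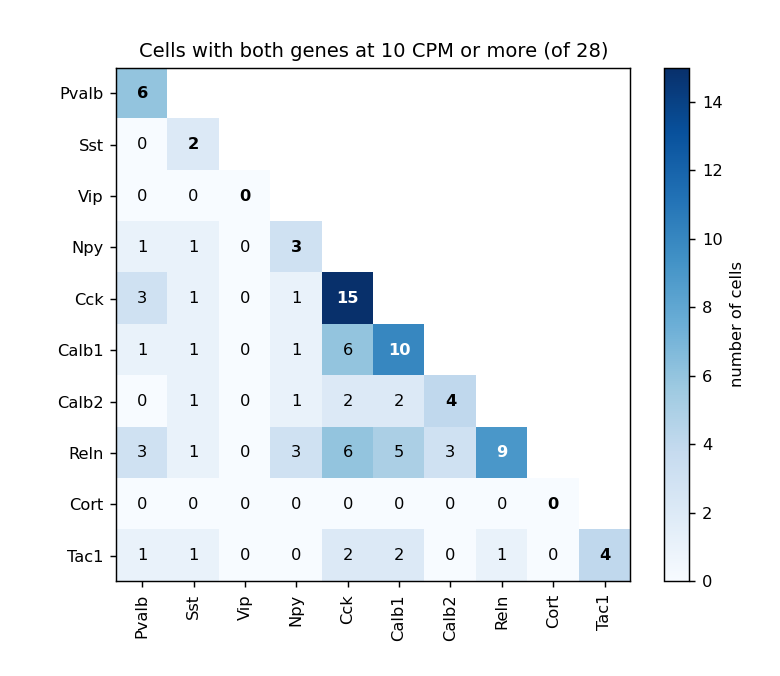
Number of the 28 cells in which both genes of a pair were at 10 exonic CPM or more, with the number of cells for each single gene on the diagonal. Cck with Calb1 and Cck with Reln reach 6 cells, and the rows of Vip and Cort are 0.

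BRP528 stood apart in the middle block through its set of genes. It carried Pvalb, Npy, Cck and Reln, with the highest Pvalb and the highest Npy of all 28 cells, and Lhx6, a transcription factor of interneurons from the medial ganglionic eminence, at 111 CPM. Its Cck, at 41.6 CPM, was near that of F2 (36.5 CPM), the F cell with the most Lhx6 (107 CPM). Both also had Pvalb. BRP541 was the only cell of that block with Sst or Tac1 at 10 CPM or more, with Sst at 69.3, Tac1 at 27.6 and Cck at 1039 CPM together with Slc17a6 at 213 and Gad2 at 340 CPM.

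When F cells were set against all 20 BRP cells, 8 of the 10 genes could be compared, as Vip and Cort did not reach 10 CPM anywhere. Calb1 was higher in F cells, with a median of 85.3 against 0 CPM, a ratio of 86.3 on the CPM + 1 scale, where 0.523% of 13374 genes were at least 4 times higher. Cck was lower, with a median of 4.5 against 710 CPM, where 59.9% of genes were at least 4 times lower. The 20 BRP cells pool 2 blocks, with Cck medians of 1725 CPM in the 12 and 0 in the 8. The F median of Cck lay between them. Calb1 had medians of 1.22 CPM in the 12, of which 5 expressed it, and 0 in the 8. With TMM scaling the medians of Calb1 became 109 against 0 and those of Cck 31.8 against 516, and with DESeq2 size factors 258 against 0 and 51.9 against 668. The ratio of Calb1 was then 110 and 259, and that of Cck went from 0.00773 to 0.0635 and 0.079. With F11 and F12 taken as 1 cell the Calb1 ratio was 79.0. The median log2 ratio over all genes was -3.07, which became -2.49 with TMM scaling and -2.32 with DESeq2 size factors, with 1.17 and 2.15% of genes then higher and 55.5 and 53.2% lower. Calb1 thus moved against the bulk of genes and Cck with it. The other 6 medians were at or near 0 in both. For none of the 8 genes did the values of F and BRP cells keep apart, while 7.73% of genes did. If F cells are the slice interneurons, strain, preparation, library kit and sequencer would differ along with cell type, and these cannot be told apart.

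For the 6 genes expressed in at least 4 cells, the genes with the most similar pattern were ranked by Pearson r of log2(CPM + 1) over the 28 cells, among 10303 genes. Cck had the closest companions, Prmt8 at 0.917, St8sia3 at 0.909 and Egr4 at 0.905. Pvalb was closest to Dlx6as1 at 0.836, a transcript antisense to Dlx6, whose reads cannot be told from those of Dlx6 without the strand, then to Fut11 at 0.714 and Nek7 at 0.698. Calb1 was closest to Syt13 at 0.741, Sncb at 0.729 and Hdac11 at 0.723. Calb2 came nearest to Dact1 at 0.778, Rgs6 at 0.694 and Lpcat1 at 0.654. Tac1 had Trpc4 at 0.712 and Ets1 at 0.701 among its 3 closest. Reln had Csrnp3 at 0.677, Fstl5 at 0.658 and Vstm2b at 0.657, and r with Csrnp3 was 0.524 without F24. The 3 names depended on single cells: none of those of Reln stayed among its 3 closest without F24. For Reln 1 of 3 stayed when any 1 of BRP564, BRP566, BRP568, BRP528, BRP539, BRP541 or F12 was left out. For Cck 1 of 3 stayed without F1 or with a pseudocount of 0.1, and for Calb1 1 of 3 stayed without F6 or BRP528. The blocks differ in depth and genes detected, and the part of this in r was not tested.

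The lists that follow are read against the 26.4, 50.0 and 47.5% of all genes that were at 10 CPM or more in at least 1 cell of the F, the 12 and the 8 BRP cells. Of 15 receptor genes for the peptides, 1 was at 10 CPM or more in an F cell, the somatostatin receptor gene Sstr1 at 139 CPM in F24, the F cell that also expressed Sst. In the 12 BRP cells 5 of 15 were, among them the cholecystokinin receptor gene Cckbr in 9 cells (median 83.8 CPM, highest 478 in BRP541), Sstr3 in 10 cells (median 59.2) and the neuropeptide Y receptor gene Npy1r in 10 cells (median 59.0). All 9 cells with Cckbr also expressed Cck, but so did all 12 cells of that block, so this overlap says nothing of a pairing. In the 8 BRP cells 3 of 15 were, each in 1 cell.

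Of the reelin receptors and adaptor, Vldlr, Lrp8 and Dab1, 2 of 3 were at 10 CPM or more in at least 1 F cell. Lrp8 had a median of 0.573 CPM there but reached 5316 CPM in F12, and Dab1 reached 18.8 CPM in F7. In the 12 BRP cells Dab1 was expressed in 12, Vldlr in 11 and Lrp8 in 10, with medians of 363, 181 and 142 CPM. Vldlr stayed at 0.539 CPM or less in every F cell.

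Of 11 genes for peptide processing and dense core granules, 9 were at 10 CPM or more in at least 1 F cell, 11 in the 12 BRP cells and 7 in the 8. The 3 with the highest F medians were Cpe (carboxypeptidase E, 522 CPM), Scg5 (146) and Scg2 (143). Among F cells Scg2, Scg3, Scg5, Chga and Pam were highest in F1 and Chgb and Vgf in F7, the 2 cells with the most Tac1, whereas Cpe and Pcsk1n were highest in F6. In the 12 BRP cells Chgb, Scg2, Scg3, Vgf, Pcsk2 and Pam were highest in BRP535, the cell with the most Cck, whereas Chga, Scg5 and Pcsk1 were highest in BRP538, Cpe in BRP541 and Pcsk1n in BRP537.

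Among 15 other EF-hand calcium-binding genes, 11 were at 10 CPM or more in an F cell, 14 in the 12 BRP cells and 9 in the 8. The calmodulin genes Calm2 and Calm3 and the visinin-like gene Vsnl1 had the highest F medians (1583, 210 and 188 CPM). Vsnl1 was highest in F6 (7108 CPM), as were Necab1 (396 CPM) and Necab2 (202 CPM), in the cell with the most Calb1.

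Of 12 interneuron transcription factors, 6 were at 10 CPM or more in an F cell, 7 in the 12 BRP cells and 6 in the 8. Satb1 was in all 8 F cells, from 30.2 to 3477 CPM with the highest in F7, and also in 9 of the 12 and 7 of the 8 BRP cells, up to 136 and 53.8 CPM. Lhx6 was in 1 F cell, F2, in 1 of the 12 BRP cells, BRP528, and in 0 of the 8. Dlx1 was in 3 F cells, with the highest in F12 (178 CPM), and at 10 CPM or more in no BRP cell. Nr2f2, a factor of interneurons from the caudal ganglionic eminence, was at 10 CPM or more in 1 F cell, F1, at 14.5 CPM, in 1 of the 12 BRP cells and in 6 of the 8, up to 211 CPM.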

How the data were processed

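Single-cell RNA-seq counts of 28 mouse brain cells were used as deposited: the authors' tables hold whole-number read counts per gene and cell, not normalized, for exons and for introns. The submitters' notes name bcl2fastq 2.17, STAR 2.4.0 and mm10. The counting tool, annotation, strand setting and filters are not given in the sources used here. No column code matched a sample label, so 0 columns were matched to a sample, all 28 were kept as 1 pooled sample of cells, and no test was made. The members, marker lists and context lists were chosen with earlier results of these data known.

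Counts were divided by the exonic total of the cell (838343 to 26770944 counts) and given as CPM. A gene was called expressed at 10 CPM. Intervals are exact Poisson intervals at 95%, and with the floor of 3 counts they cover counting error only. F and BRP cells were compared by the ratio of median CPM + 1, with a limit of 4, over genes at 10 CPM in at least 1 cell. The genes named are the 10 members, the 3 genes most like each member in at least 4 cells, and of each context list the 3 highest F medians and receptors, processing or granule genes of a member. Other genes named were chosen after their values were seen. Some items are not reported here. Exon lengths, positions and overlaps come from GENCODE M21 on GRCm38, and promoter windows from RefSeq. Alternatives were thresholds of 1 and 100 CPM and of 10 counts, TMM and DESeq2 scaling, intronic counts added, thinning to 838343 counts, totals without the 10 top genes, no filter, a pseudocount of 0.1 and, added after the data were seen, F11 and F12 as 1 cell and each cell left out. The scripts were tested on simulated data. Python 3.11.15, numpy 2.4.6, pandas 2.3.3, scipy 1.17.1, matplotlib 3.10.9, R 4.3.3, edgeR 4.0.16 and DESeq2 1.42.0 were used.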

Additional observations from a re-analysis of the deposited data

How the results depend on the processing

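The threshold moved the counts of co-expression most. Against 14 cells with 2 or more of the genes at 10 CPM, there were 25 at 1 CPM, 5 at 100 CPM and 23 at 10 or more counts. Against 4 F cells, there were 8 at 1 CPM, 1 at 100 CPM and 7 with DESeq2 size factors, and against 24 pairs seen together, 7 at 100 CPM. At 1 CPM Pvalb was in 10 cells, Sst in 7, Vip in 1, Npy in 7 and Calb2 in 9, and at 10 or more counts Pvalb was in 10, Sst in 7, Npy in 7 and Calb2 in 9. At 100 CPM Pvalb was in 3 cells, Npy in 1, Calb1 in 6, Reln in 2, Tac1 in 2 and Sst and Calb2 in 0. With DESeq2 size factors Sst was in 4. With intronic counts added Reln was in 20 cells instead of 9. Sst fell from 2 cells to 1 without BRP541 or F24. TMM scaling, thinning, totals without the top genes and F11 with F12 as 1 cell kept every count of cells, pairs and members within 1.5 times of its value. Against the 20 BRP cells pooled, Calb1 remained higher and Cck lower in F cells under TMM and DESeq2 scaling and without the filter. The same held with F11 and F12 as 1 cell and without each cell. The 2 ratios moved with the scaling (Calb1 86.3 to 259, Cck 0.00773 to 0.079). Calb2 and Tac1, each expressed in 4 cells, could not be ranked in 4 of 28 leave-outs each. For Pvalb, 4 of 28 leave-outs dropped its closest gene, Dlx6as1, also expressed in 4 cells, from the genes ranked. No paired analysis was possible because the columns carry no replicate number and no result comes from a test. Depth limits the F cells most: in F16 a count of 3 is 3.58 CPM.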

Other observations

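Other genes that mark interneuron subtypes, 22 with Tac1 among them, were at 10 CPM or more in at least 1 F cell for 9, in the 12 BRP cells for 10 and in the 8 BRP cells for 6. The fast potassium channel genes Kcnc2 and Kcnc1 had the highest F medians (1206 and 416 CPM), and Kcnc2 was in all 8 F cells, from 11.8 CPM to 12459 in F16, against a highest value of 77.1 CPM in the 12 BRP cells, in BRP528. Nxph1, the gene of neurexophilin, had an F median of 6.58 CPM and reached 2212 CPM in F24, the cell with the most Reln.

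Further peptide genes, named after their values were seen, were also spread unevenly over cells. Crh, the gene of corticotropin-releasing hormone, was at 558 CPM in F7, the cell with the second highest Tac1, and in no other F cell at 10 CPM or more. Crhbp, which encodes the protein that binds this hormone, was at 10 CPM or more in 3 F cells with a highest value of 382 CPM in F11. Penk, the enkephalin precursor gene, was at 10 CPM or more in 10 of the 12 BRP cells, with a median of 1014 CPM and the highest value, 8073 CPM, in BRP541, the cell that also carried Sst and Tac1.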
